A study of Canis lupus familiaris with 8 samples.

Results

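Chromatin modifiers and remodellers are the enzymes and protein complexes that mark, unmark and move nucleosomes. Of the 12824 genes measured in dog retina, 106 carried symbols of their families. Members were taken by gene symbol: the KMT, SETD, NSD, EHMT, EZH, KAT and DNMT families were counted as writers, KDM, HDAC, SIRT and TET as erasers, SMARC, ARID1 and CHD as remodellers, and BRD and ARID3 to ARID5 as readers and other DNA-binding members. This gave 35 writers, 36 erasers, 22 remodellers and 13 readers. Roles follow the symbol, so the counts include members that act on other proteins, such as SIRT4 and SETD3. RefSeq names 109 dog genes of these families, and the remaining 3, ARID3C, KMT2C and KMT5A, were not analysed here.

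Retinas came from male wild-type Beagle dogs aged 31 weeks, and total RNA from each was sequenced in bulk. The PFA-fixed group (4 libraries) came from left eyes. These were kept in 4% paraformaldehyde for 3 h and then in 2% paraformaldehyde for 24 h at 4 °C, moved to 15% sucrose and after 24 h to 30% sucrose for as long, and frozen in OCT. Its RNA was isolated with the RNeasy FFPE kit, with proteinase K for 18 h at 56 °C and an additional DNase step. The fresh-frozen group (4 libraries) came from right eyes frozen in OCT without fixative, and its RNA was isolated with the RNeasy Plus Micro kit. Both groups shared the SMARTer Stranded Total RNA-Seq v3 Pico library kit. Fixation, side of the eye and RNA isolation therefore changed together and cannot be told apart. The labels do not say which libraries share a dog, so p-values refer to library-to-library spread only, which may be technical.

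Writers add methyl or acetyl groups to histone tails, or methyl groups to DNA, and erasers remove them. Remodellers use ATP to slide, eject or exchange nucleosomes, and bromodomain readers bind acetylated lysines. Rod photoreceptors, the commonest cells of the dog retina, are known from mouse for unusually condensed chromatin, with the genes of phototransduction in the open remainder. Many of these enzymes work in large assemblies such as COMPASS (methylation of histone H3 lysine 4), polycomb complexes (methylation of H3 lysine 27 and ubiquitination of H2A), SWI/SNF and NuRD.

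The comparison asks how well RNA of a fixed retina matches that of a frozen one. The effective number of reads, estimated from the spacing of low values, was 12.77 ± 1.83 (in units of 1e6 reads) in PFA-fixed libraries and 22.08 ± 0.529 in fresh-frozen libraries (SD, n = 4 each; exact permutation p = 0.0286, the smallest this design allows). Across all genes, Pearson correlations were 0.977 to 0.990 within groups and 0.832 to 0.862 between them, and across the members 0.993 to 0.997 within and 0.941 to 0.956 between. Genes are not independent replicates, so these are descriptions. Levels of marker lists also differed between the groups. The 20 rod genes summed to 34700 to 39620 CPM in PFA-fixed libraries and 31700 to 36950 CPM in fresh-frozen libraries, with 10 called higher and 5 lower, and the 10 bipolar cell genes to 2419 to 3094 and 1460 to 1836 CPM (6 higher, 1 lower). The 10 sclera and fibroblast genes, all called lower, summed to 186.6 to 211.8 CPM in PFA-fixed and 7897 to 11020 CPM in fresh-frozen libraries, and the 10 pigment epithelium and melanin genes, also all lower, to 57.62 to 109.8 and 2715 to 4073 CPM. The 10 vascular genes, all lower, summed to 521.4 to 604.7 CPM in PFA-fixed and 1901 to 2632 CPM in fresh-frozen libraries. Sums for the 10 microglia and macrophage genes (8 lower) were 36.93 to 53.65 and 236.6 to 380.5 CPM, and for the 10 Müller glia genes (5 lower) 3138 to 4217 and 5496 to 7683 CPM. In bulk tissue, fewer cells of a type and less RNA per cell cannot be told apart, and the part these cell types have in the results that follow was not tested.

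Most chromatin genes were higher in the PFA-fixed retinas by a modest amount. Of the 106 members, 66 (62.3%) rose and 12 (11.3%) fell, where a call means a Benjamini-Hochberg adjusted limma p under 0.05 over the whole table. Over all 12824 genes, 33.9% were called higher and 34.7% lower, 68.7% in all. The median change of the members was 0.31 on the log2 scale, against −0.02 for all genes, and the changes ran from −2.32 (ARID5A) to 1.57 (SIRT4). Most changes were under 2-fold, with 87.7% of members within 2-fold in either direction, against 75.6% of all genes. A rise of at least 2-fold was found for 11 of the 106 members, a share near the 10.6% of all genes. Falls of that size were rarer, with 2 members, against 13.7% of all genes. In a test for more than 1.5-fold, 17 members (16%) were higher and 4 (3.77%) lower, against 11.9% and 14.1% of all genes. All 4 PFA-fixed libraries exceeded all 4 fresh-frozen libraries for 59 members (55.7%, background 31.3%) and were all below them for 10 (9.43%, background 31.6%), where 62.9% of all genes did not overlap in either direction. Values of the members ran from 0.84 to 11.23 log2 CPM, none at the lowest value of the table, and the median SE of a change was 0.0741 for members and 0.115 for all genes.

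**Figure D1:**
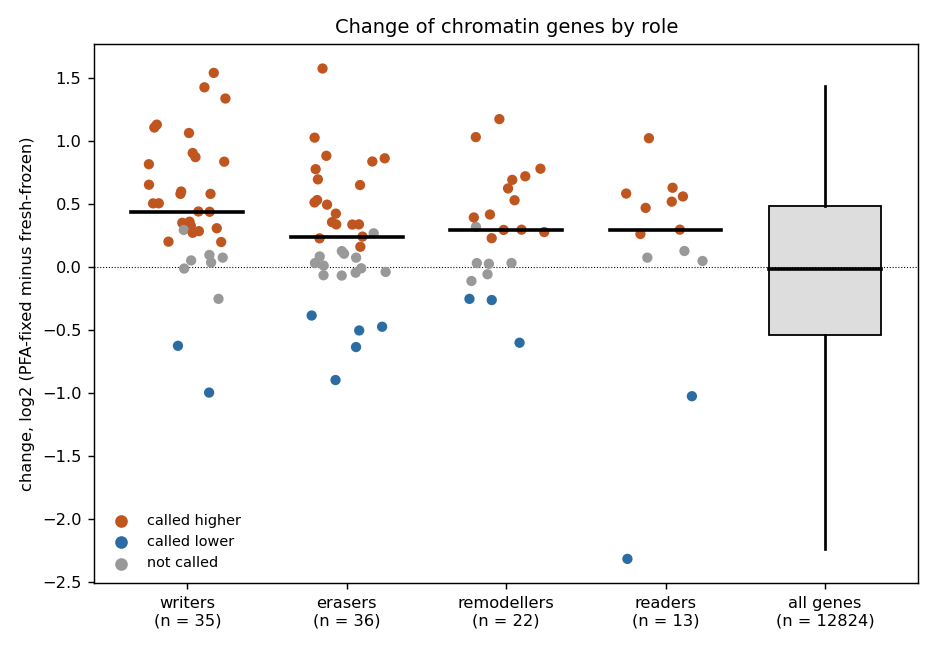
Change of each member (log2, PFA-fixed minus fresh-frozen, vertical axis) by role (horizontal axis), 1 point a gene, with called and uncalled genes in different colours and a bar at each role's median. The box for all 12824 genes spans the quartiles with whiskers at the 5th and 95th percentiles. Medians of the 4 roles lie between 0.23 and 0.44, above the all-gene median of −0.02.

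The direction rests on how libraries are scaled. The deposited scaling left the median gene near 0, and the members together made up 2.15 ± 0.03% of the linear CPM of PFA-fixed libraries and 1.66 ± 0.04% of fresh-frozen libraries (SD, n = 4 each). When each library was instead centred on the median of the 20 rod genes, the median of all genes moved by −0.483, to −0.50, and that of the members moved to −0.17. Then 19 members (17.9%) were called higher and 41 (38.7%) lower, against 13.5% and 58.0% of all genes. Centring on the mean of the rod genes moved the median of all genes by −0.22 and that of the members to 0.09. It gave 41 members (38.7%) higher and 19 (17.9%) lower, with 22.4% and 44.2% of all genes. The 20 rod genes themselves had a median change of 0.21. Their median level in a library rests on the middle genes of the list, and its shift was larger than this typical change. Relative to all genes, the members' median was higher by 0.33, a difference that centring leaves as it is by construction. After quantile normalization it was higher by 0.203. There, 61 members (57.5%) were higher and 14 (13.2%) lower, against 38% and 31.3% of all genes. Directions given in what follows are those of the deposited scaling unless another is named.

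**Figure D2:**
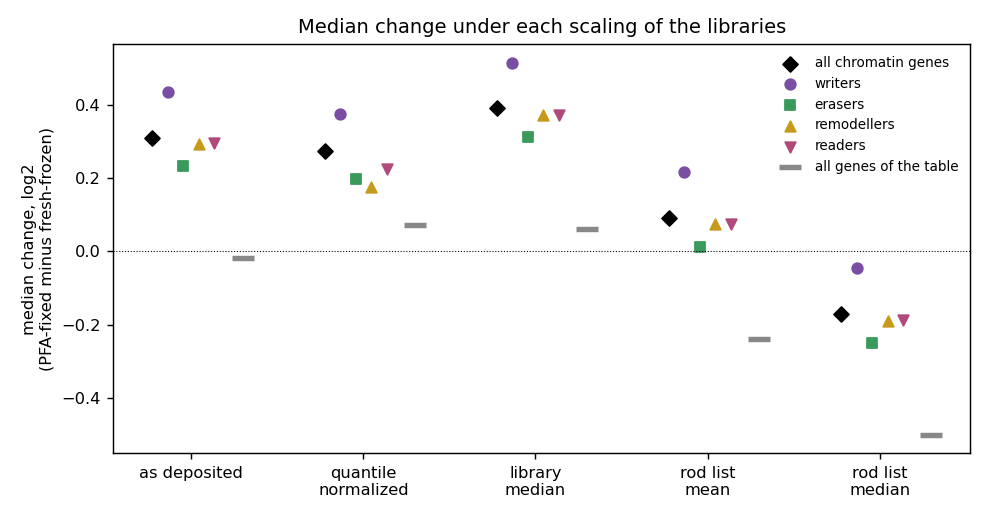
Median change (log2, PFA-fixed minus fresh-frozen, vertical axis) of all genes, of all members and of each role under 5 scalings of the libraries (horizontal axis). The members' median is 0.31 as deposited and −0.17 when centred on the rod median. Centring shifts all genes together, so the distance to the median of all genes changes under quantile normalization alone.

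Writers had the highest share of rises. Of 35 writers, 26 (74.3%) rose and 2 (5.71%) fell, with a median change of 0.44. Of 36 erasers, 19 (52.8%) rose and 5 (13.9%) fell, with a median of 0.23, and of 22 remodellers, 13 (59.1%) rose and 3 (13.6%) fell, with a median of 0.29. Of 13 readers, 8 (61.5%) rose and 2 (15.4%) fell, with a median of 0.29. Centred on the rod median, the medians were −0.05 for writers, −0.25 for erasers, −0.19 for remodellers and −0.19 for readers, against −0.50 for all genes. With the rod mean they were 0.22, 0.01, 0.07 and 0.07 in the same order, against −0.24 for all genes. Averaged over genes within each library, the mean log2 level of writers minus that of erasers was 0.50, 0.49, 0.53 and 0.51 in PFA-fixed libraries and 0.27, 0.24, 0.29 and 0.36 in fresh-frozen libraries. The groups did not overlap in this difference, which centring a library cannot move, though quantile normalization can, and which was 0.22 greater in the PFA-fixed group. Writers minus remodellers averaged −1.01 ± 0.02 in PFA-fixed and −1.18 ± 0.05 in fresh-frozen libraries (SD, n = 4 each), again without overlap. Remodellers minus erasers averaged 1.52 ± 0.03 and 1.47 ± 0.03, and these ranges overlapped (1.48 to 1.55 in PFA-fixed, 1.44 to 1.51 in fresh-frozen libraries). These are descriptions of lists whose members are unevenly abundant, and no test was made over them.

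**Figure D3:**
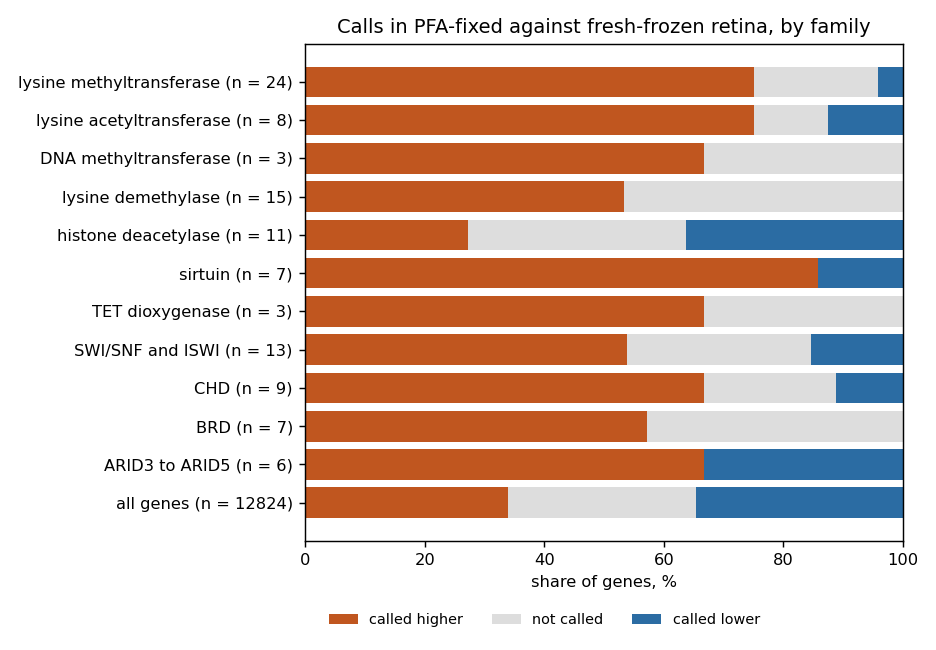
Percent of each family's measured genes called higher or lower in PFA-fixed than in fresh-frozen retina (limma, adjusted p under 0.05), families down the page, with the number of genes beside each name. All genes, at 33.9% higher and 34.7% lower, are given for comparison. Lysine methyltransferases stand at 75% higher and 4.17% lower, histone deacetylases at 27.3% higher and 36.4% lower.

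Of the 24 lysine methyltransferases, 18 rose, 1 fell and 5 were not called, with a median change of 0.39. This median was 0.17 when centred on the rod mean and −0.09 when centred on the rod median. The largest rise among the writers was that of KMT2D, an H3 lysine 4 methyltransferase. KMT2D, which marks enhancers and is mutated in human Kabuki syndrome, had 11.23, 11.17, 11.09 and 11.15 log2 CPM in PFA-fixed libraries, against 9.59, 9.64, 9.57 and 9.68 in fresh-frozen libraries. The groups stood far apart, with a change of 1.54 ± 0.06 (SE; limma adjusted p = 3e-09). KMT2A (MLL1), the founding member of the family, had 10.11, 10.08, 10 and 10 log2 CPM in PFA-fixed and 8.87, 9.01, 8.87 and 9.01 in fresh-frozen libraries, a change of 1.11 ± 0.06 (limma adjusted p = 3.84e-08). SETD1A, a catalytic subunit of COMPASS, had 7.13, 7.30, 7.25 and 7.21 log2 CPM in PFA-fixed and 6.02, 6.16, 6.09 and 6.10 in fresh-frozen libraries. It changed by 1.13 ± 0.06 (limma adjusted p = 2.97e-08), and every PFA-fixed library was above every fresh-frozen one. The related KMT2B and SETD1B rose by less, 0.65 ± 0.07 and 0.44 ± 0.06. KMT2E, which carries a SET domain but has no known histone methyltransferase activity, was at 8.45 to 8.68 log2 CPM in PFA-fixed and 8.31 to 8.53 in fresh-frozen libraries and was not called (0.09 ± 0.07). It was called higher when centred on the library median (0.17) and lower when centred on the rod median (−0.39).

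Of the enzymes that methylate other lysines, KMT5C had the largest change. KMT5C, which trimethylates lysine 20 of histone H4 in constitutive heterochromatin, had 6.05, 6.03, 6.04 and 5.96 log2 CPM in PFA-fixed libraries, against 4.68, 4.59, 4.81 and 4.66 in fresh-frozen libraries. Its change of 1.34 ± 0.08 (limma adjusted p = 3.08e-08) was larger than that of KMT5B, which catalyses dimethylation of the same residue (0.31 ± 0.07). SETDB2, an H3 lysine 9 methyltransferase, rose by 0.81 ± 0.08, and SETDB1, which silences retroelements, by 0.27 ± 0.06. EHMT1 and EHMT2, which dimethylate H3 lysine 9 as a heterodimer, rose by 0.33 ± 0.06 and 0.60 ± 0.09. SETD2, the H3 lysine 36 trimethylating enzyme, rose by 0.50 ± 0.07 and NSD3 by 0.44 ± 0.07, while NSD1 and NSD2, which dimethylate that residue, were at 0.03 ± 0.07 and −0.01 ± 0.07 and not called. EZH1 and EZH2, the alternative catalytic subunits of polycomb complex 2, rose by 0.28 ± 0.07 and 0.35 ± 0.12. The groups overlapped for EZH2, with 4.37, 4.26, 4.67 and 4.54 log2 CPM in PFA-fixed and 3.90, 4.09, 4.13 and 4.32 in fresh-frozen libraries. Its call (limma adjusted p = 0.026) was lost on leaving out PFA-fixed library 3 or 4 or fresh-frozen library 1, with changes of 0.28 to 0.32.

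SETD7 was the one lysine methyltransferase that fell. This enzyme monomethylates H3 lysine 4 and several proteins that are not histones. It had 5.54, 5.49, 5.37 and 5.39 log2 CPM in PFA-fixed libraries, against 6.63, 6.37, 6.33 and 6.45 in fresh-frozen libraries, a change of −0.999 ± 0.08 (limma adjusted p = 6.27e-07). At the low end of the family, SETD4 rose by 1.06 ± 0.16, with 3.58 to 3.98 log2 CPM in PFA-fixed and 2.42 to 2.92 in fresh-frozen libraries, while SETD9, between 1.24 and 2.26 log2 CPM in the 8 libraries, was not called (0.29 ± 0.22), except after quantile normalization (0.68). SETD5, mutated in human intellectual disability, rose by 0.58 ± 0.06, and SETD3, an actin histidine methyltransferase, was not called (0.07 ± 0.07). SETD6, which methylates the NF-kappaB subunit RELA, rose by 0.20 ± 0.08 with overlap between the groups, and its call was lost in 6 of the 8 analyses that left out 1 library (0.16 to 0.20), all but those without PFA-fixed library 1 or fresh-frozen library 3.

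Of the 8 acetyltransferases, 6 rose and 1 fell, and the fall stood within a pair of close paralogs. Their median was 0.43 as deposited, 0.21 when centred on the rod mean and −0.05 when centred on the rod median. KAT2A (GCN5), the acetyltransferase of the SAGA complex, had 5.06, 5.13, 5.16 and 5.14 log2 CPM in PFA-fixed libraries, against 4.27, 4.42, 4.33 and 4.14 in fresh-frozen libraries. KAT2B (PCAF), which can take its place in that complex, had 7.12, 7.04, 7.25 and 7.0 log2 CPM in PFA-fixed and 7.64, 7.79, 7.70 and 7.79 in fresh-frozen libraries. KAT2A thus rose by 0.83 ± 0.09 and KAT2B fell by 0.63 on the log2 scale (SE 0.07; limma adjusted p = 5.59e-06 and 7.52e-06). KAT6B (MORF) rose by 0.90 ± 0.07, and its partner KAT6A (MOZ) by 0.36 ± 0.07. KAT5 (TIP60), KAT8 (MOF, which acetylates H4 lysine 16) and KAT7 (HBO1) rose by 0.58 ± 0.06, 0.50 ± 0.10 and 0.20 ± 0.06. KAT14 was not called (−0.25 ± 0.13), except as lower without fresh-frozen library 2 (−0.37) and in both rod centrings.

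Of the DNA methyltransferases, the de novo enzymes rose and the maintenance enzyme was not called. DNMT3A, the main de novo methyltransferase of neurons, had 7.37, 7.82, 7.29 and 7.52 log2 CPM in PFA-fixed libraries, against 6.01, 6.08, 6.09 and 6.12 in fresh-frozen libraries. The PFA-fixed libraries were the more spread of the groups, and the change was 1.42 ± 0.10 (limma adjusted p = 2.05e-07). DNMT3B, at 3.80 to 3.98 log2 CPM in PFA-fixed and 2.72 to 3.30 in fresh-frozen libraries, rose by 0.87 ± 0.15. DNMT1, which copies methylation to the new strand after replication, had 6.16 to 6.29 log2 CPM in PFA-fixed and 6.10 to 6.30 in fresh-frozen libraries, a change of 0.05 ± 0.07. The 12 genes of the proliferation list had 7 measured members, which summed to 73.8 to 82.08 CPM in PFA-fixed and 91.34 to 108.6 CPM in fresh-frozen libraries (1 higher, 4 lower).

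**Figure D4:**
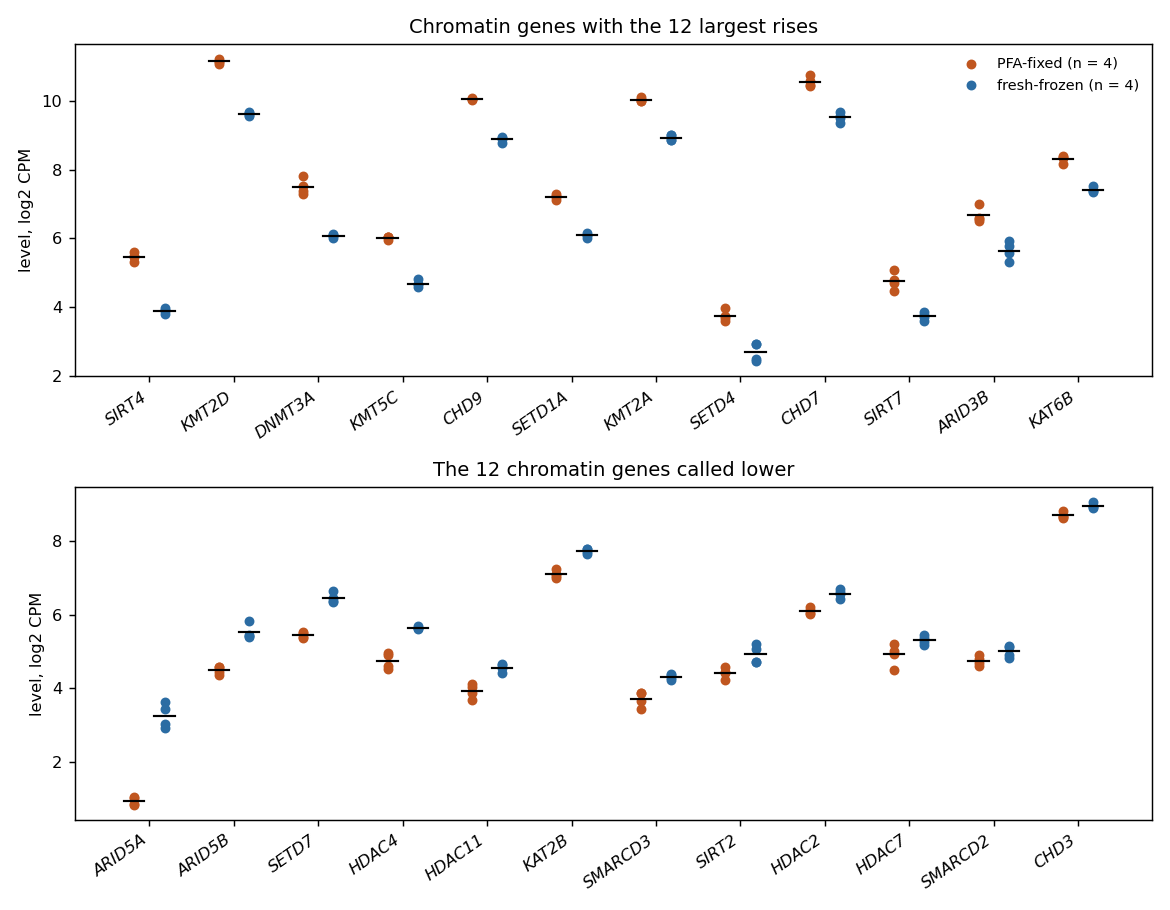
Level (log2 CPM, vertical axis) in each of the 4 PFA-fixed and 4 fresh-frozen libraries, 1 point a library with a bar at the group mean, for the 12 members with the largest rises (upper panel) and the 12 that fell (lower panel). KMT2D lies at 11.09 to 11.23 in PFA-fixed and 9.57 to 9.68 in fresh-frozen libraries, and ARID5A at 0.84 to 1.04 and 2.93 to 3.62.

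Erasers were split by family. The 7 sirtuins, NAD-dependent deacylases, had the highest median, 0.77, with 6 that rose and 1 that fell, and this median stayed above 0 when libraries were centred on the rod median (0.29). SIRT4, a mitochondrial sirtuin that acts on metabolic enzymes, had 5.46, 5.32, 5.49 and 5.61 log2 CPM in PFA-fixed libraries, against 3.97, 3.80, 3.89 and 3.91 in fresh-frozen libraries. This change, 1.57 ± 0.09 (limma adjusted p = 3.89e-08), was the largest rise among the members. SIRT7, the nucleolar sirtuin, had 4.71, 5.07, 4.48 and 4.79 log2 CPM in PFA-fixed and 3.86, 3.72, 3.77 and 3.60 in fresh-frozen libraries, a change of 1.03 ± 0.13 (limma adjusted p = 2.45e-05). SIRT6 (0.84 ± 0.14), a nuclear deacetylase of H3 lysine 9, SIRT1 (0.77 ± 0.09), its best-studied relative, and the mitochondrial SIRT3 (0.69 ± 0.13) and SIRT5 (0.34 ± 0.08) also rose. SIRT2, a largely cytoplasmic tubulin deacetylase abundant in oligodendrocytes, had 4.59, 4.42, 4.43 and 4.24 log2 CPM in PFA-fixed libraries, against 5.21, 4.71, 5.07 and 4.71 in fresh-frozen libraries. It fell by 0.51 on the log2 scale (SE 0.13; limma adjusted p = 0.00482).

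The zinc-dependent histone deacetylases changed in both directions. Of 11, 3 (27.3%) rose, 4 (36.4%) fell and 4 were not called, shares close to those of all genes (33.9% and 34.7%), with a median change of −0.05 as deposited, near that of all genes, and of 0.10 after quantile normalization. Centred on the rod median, none was higher and 9 were lower, against 13.5% and 58% of all genes. The median was then −0.53, against −0.50 for all genes. HDAC4, a class IIa deacetylase that shuttles between nucleus and cytoplasm in neurons, had 4.52, 4.90, 4.96 and 4.60 log2 CPM in PFA-fixed libraries, against 5.64, 5.68, 5.65 and 5.62 in fresh-frozen libraries. It changed by −0.90 ± 0.10 (limma adjusted p = 1.22e-05), with the fresh-frozen libraries close together and the PFA-fixed ones spread. HDAC11, the only class IV enzyme, had 3.86, 4.02, 3.68 and 4.12 log2 CPM in PFA-fixed and 4.62, 4.41, 4.65 and 4.56 in fresh-frozen libraries, a change of −0.64 ± 0.12 (limma adjusted p = 0.000455). HDAC2, a catalytic subunit of NuRD, SIN3 and CoREST complexes, fell by 0.48 on the log2 scale (SE 0.08; limma adjusted p = 0.000141), while its close paralog HDAC1 was at 5.0 to 5.15 log2 CPM in PFA-fixed and 4.89 to 5.04 in fresh-frozen libraries and was not called (0.07 ± 0.08). HDAC8, a class I enzyme that deacetylates cohesin, rose by 0.65 ± 0.11 without overlap. HDAC6, the cytoplasmic tubulin deacetylase, and HDAC9, of class IIa, rose by 0.24 ± 0.09 and 0.16 ± 0.06, and HDAC7, another class IIa enzyme known from endothelium, changed by −0.39 ± 0.13. For these 3 the groups overlapped. The HDAC6 call was lost in 6 of the 8 analyses that left out 1 library (0.19 to 0.25), all but those without PFA-fixed library 4 or fresh-frozen library 1, and the HDAC9 call in 7 (0.14 to 0.17), all but that without PFA-fixed library 3. The HDAC9 call was also lost after quantile normalization (0.10) and in the fit without an intensity trend. HDAC7 lost its call without fresh-frozen library 1 or 4 (−0.34 and −0.37) and when centred on the library median (−0.31). HDAC3, HDAC5 and HDAC10 lay between −0.07 and −0.01 and were not called.

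Lysine demethylases rose or were not called. Of 15, 8 rose, none fell as deposited, and the median was 0.23. After quantile normalization 6 rose and 1, KDM4C, fell, where 38% of all genes were higher and 31.3% lower. Centred on the rod median, 1 was higher and 8 were lower, against 13.5% and 58% of all genes. The median was −0.26 there and 0.01 when centred on the rod mean. KDM6B (JMJD3), an H3 lysine 27 demethylase induced by many stimuli, had 7.62, 7.72, 7.59 and 7.51 log2 CPM in PFA-fixed libraries, against 6.67, 6.88, 6.74 and 6.63 in fresh-frozen libraries. The change was 0.88 ± 0.07 (limma adjusted p = 6.12e-07). The X-linked KDM6A (UTX), which acts on the same mark, was at 0.10 ± 0.10 and not called. Its Y-linked copy UTY, which is not a member, was measured separately, and the copies could share reads. UTY had 6.43 to 6.63 log2 CPM in PFA-fixed and 6.19 to 6.50 in fresh-frozen libraries. It rose by 0.25 ± 0.08 with overlap (limma adjusted p = 0.0175). KDM1B (LSD2) rose by 0.53 ± 0.08, while KDM1A (LSD1), the catalytic subunit of CoREST, had 6.78 to 6.92 log2 CPM in PFA-fixed and 6.80 to 6.89 in fresh-frozen libraries, a change of 0.01 ± 0.06. Of the H3 lysine 4 demethylases, KDM5C rose by 0.49 ± 0.06 and KDM5B by 0.34 ± 0.09, the second with overlap through fresh-frozen library 2 and without a call after quantile normalization (0.12). KDM5A was not called (0.08 ± 0.07). KDM2A, KDM2B and KDM3A rose by 0.35 ± 0.07, 0.42 ± 0.09 and 0.34 ± 0.07, and KDM3B (0.12 ± 0.06) was called higher only without fresh-frozen library 2 (0.16) or when centred on the library median (0.20). KDM4A, KDM4B and KDM4C, which act on H3 lysine 9 and lysine 36, lay between −0.07 and 0.03 and were not called. KDM7A rose by 0.23 ± 0.09 with overlap, and its call was lost without PFA-fixed library 1, 2 or 3 or fresh-frozen library 1 or 3 (0.16 to 0.22). The KDM7A call was also lost after quantile normalization (0.20) and in the fit without an intensity trend.

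TET dioxygenases begin DNA demethylation by oxidising methylcytosine. TET3, the form best known from neurons and the zygote, had 6.77, 6.78, 6.92 and 6.53 log2 CPM in PFA-fixed libraries, against 5.87, 6.0, 5.90 and 5.77 in fresh-frozen libraries, a change of 0.86 ± 0.09 (limma adjusted p = 4.18e-06). TET2 rose by 0.51 ± 0.07 (limma adjusted p = 5.26e-05). TET1 was not called at 0.27 ± 0.11 (limma adjusted p = 0.0569), and its groups overlapped. It was called higher without PFA-fixed library 4 (0.37) or fresh-frozen library 2 (0.33) and when centred on the library median (0.34).

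Of the remodellers, the CHD helicases held the largest rises. Among 9 CHD genes, 6 rose, 1 fell and 2 were not called, with a median of 0.42 as deposited. The CHD median was 0.20 when centred on the rod mean and −0.07 when centred on the rod median. CHD9 had 10.05, 10.06, 10.10 and 10.05 log2 CPM in PFA-fixed libraries, against 8.79, 8.92, 8.91 and 8.96 in fresh-frozen libraries, a change of 1.17 ± 0.06 (limma adjusted p = 1.35e-08). CHD7, mutated in human CHARGE syndrome, had 10.48, 10.59, 10.75 and 10.45 log2 CPM in PFA-fixed and 9.37, 9.70, 9.58 and 9.52 in fresh-frozen libraries, a change of 1.03 ± 0.09 (limma adjusted p = 9.92e-07). Both belong to the subfamily of CHD6 to CHD9, of which CHD6 and CHD8, the autism-associated helicase, rose by 0.42 ± 0.06 and 0.23 ± 0.06. CHD2, associated with epilepsy in humans, and CHD1, which binds trimethylated H3 lysine 4, rose by 0.72 ± 0.06 and 0.53 ± 0.07. CHD3, a helicase of NuRD, fell. It had 8.64, 8.82, 8.66 and 8.69 log2 CPM in PFA-fixed and 8.93, 8.94, 9.06 and 8.89 in fresh-frozen libraries, a change of −0.25 ± 0.06 (limma adjusted p = 0.00383). CHD4, the other main helicase of that complex (0.02 ± 0.06), and the neuronal CHD5 (0.32 ± 0.16) were not called. CHD5 was called higher without PFA-fixed library 3 (0.44) or fresh-frozen library 3 (0.46) and when centred on the library median (0.40), and the sign of CHD4 turned after quantile normalization (−0.19) and when centred on the rod mean or median (−0.20 and −0.46).

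SWI/SNF and ISWI genes moved less. Of 13, 7 rose, 2 fell and 4 were not called, with a median of 0.28 as deposited. This median was 0.08 after quantile normalization, where that of all genes was 0.07. It was 0.06 when centred on the rod mean and −0.21 when centred on the rod median. SMARCD1 (BAF60A), one of 3 alternative subunits that link the complex to transcription factors, had 6.29, 6.33, 6.39 and 6.16 log2 CPM in PFA-fixed libraries, against 5.57, 5.44, 5.51 and 5.54 in fresh-frozen libraries. Its alternative SMARCD3 (BAF60C), known from heart and neurons, had 3.66, 3.87, 3.44 and 3.87 log2 CPM in PFA-fixed and 4.21, 4.37, 4.38 and 4.29 in fresh-frozen libraries. Their changes were 0.78 ± 0.07 and −0.60 ± 0.12 (limma adjusted p = 1.72e-06 and 0.000846). SMARCD2 (BAF60B), at −0.26 ± 0.11 (limma adjusted p = 0.0427), overlapped between the groups and lost its call without PFA-fixed library 1, 3 or 4 or fresh-frozen library 1 or 2. The SMARCD2 call was also lost after quantile normalization (−0.17), when centred on the library median (−0.18) and in the fit without an intensity trend. The core subunits SMARCC2, SMARCB1 and SMARCC1 rose by 0.69 ± 0.07, 0.62 ± 0.08 and 0.39 ± 0.06. Of the ATPases, SMARCA2 (BRM) rose by 0.29 ± 0.07 but was not called after quantile normalization (0.08). SMARCA4 (BRG1) was not called, at 0.03 ± 0.07 as deposited and −0.18 after quantile normalization. SMARCE1 (BAF57), another core subunit, was not called (0.03 ± 0.08). The ISWI ATPases SMARCA1 (−0.11 ± 0.08) and SMARCA5 (−0.06 ± 0.07) were not called. ARID1A and ARID1B, the mutually exclusive DNA-binding subunits of the BAF complex, rose by 0.29 ± 0.07 and 0.28 ± 0.06, although ARID1A was not called after quantile normalization (0.11).

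Among the ARID3 to ARID5 genes 4 rose and 2 fell, and the 2 that fell, both ARID5 genes, were the only members to fall at least 2-fold, with SETD7 just inside that bound. ARID5A, an RNA-binding protein that stabilises cytokine mRNAs in mouse, had 0.86, 0.84, 1.01 and 1.04 log2 CPM in PFA-fixed libraries, against 3.43, 2.93, 3.62 and 3.04 in fresh-frozen libraries. This was the largest change of any member in either direction, −2.32 ± 0.20 (limma adjusted p = 7.73e-07). ARID5B, a partner of the demethylase PHF2, had 4.43, 4.59, 4.37 and 4.58 log2 CPM in PFA-fixed and 5.82, 5.43, 5.45 and 5.38 in fresh-frozen libraries, a change of −1.03 ± 0.11 (limma adjusted p = 5.8e-06). The sclera, pigment epithelium, vascular, microglia and Müller glia lists given above also had lower sums, and 34.7% of all genes fell. A link of these lists to the 2 ARID5 genes was not tested. ARID3B, which binds AT-rich DNA, changed the other way, with 6.50, 6.58, 6.61 and 6.99 log2 CPM in PFA-fixed and 5.33, 5.57, 5.91 and 5.79 in fresh-frozen libraries (1.02 ± 0.14; limma adjusted p = 3.54e-05). ARID4B and ARID4A, retinoblastoma-binding proteins of the SIN3 complex, rose by 0.63 ± 0.07 and 0.26 ± 0.07, and ARID3A by 0.56 ± 0.16 with overlap.

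Bromodomain genes rose slightly or were not called. Of 7, none fell and 4 rose, their median being 0.29 as deposited and 0.08 after quantile normalization. It was 0.07 when centred on the rod mean and −0.19 when centred on the rod median. BRD1, a scaffold of the HBO1 and MOZ acetyltransferase complexes, rose by 0.58 ± 0.08. BRD9 (0.52 ± 0.11), of the non-canonical SWI/SNF complex, BRD8 (0.47 ± 0.05), of the TIP60 complex, and BRD2 (0.29 ± 0.06), of the BET family, rose as well, although BRD2 was not called after quantile normalization (0.08). BRD3, also of the BET family (0.07 ± 0.07), and BRD7, a subunit of the PBAF form of SWI/SNF (0.05 ± 0.07), were not called.

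Related genes of 1 family, some of them alternative subunits of a complex, were set side by side in each library, which takes out any shift common to all genes of a library. Of 19 measured pairs, 13 differed between the groups without overlap. Each had a two-sided exact permutation p of 0.0286, the smallest 4 against 4 allow, and 0.0418 after adjustment over the 19 pairs. The pairs were chosen with earlier results of these data known, so these p-values are descriptions. Among all genes taken singly, 62.9% did not overlap either, a share near that of the pairs. The share among other gene pairs was not computed. KAT2A minus KAT2B was −2.05, −1.91, −2.09 and −1.86 (log2 difference) in PFA-fixed libraries and −3.37, −3.37, −3.37 and −3.65 in fresh-frozen libraries. This ratio shifted toward KAT2A by 1.46. SMARCD1 minus SMARCD3 was 2.63, 2.46, 2.94 and 2.30 in PFA-fixed and 1.36, 1.06, 1.13 and 1.25 in fresh-frozen libraries, a shift of 1.38 toward SMARCD1. DNMT1 minus DNMT3A was −1.18, −1.54, −1.0 and −1.36 in PFA-fixed and 0.12, 0.11, 0.22 and −0.02 in fresh-frozen libraries, a shift of −1.37, toward DNMT3A. A difference between genes in one library also depends on transcript length, so only the shift between groups is described. Whether that dependence itself differs between the groups was not tested. KDM6A minus KDM6B shifted by −0.78, and SETD1A minus SETD1B by 0.69. HDAC1 minus HDAC2 shifted by 0.55 and KMT2A minus KMT2B by 0.45, in each case toward the first gene. Shifts toward the second gene were found for KAT6A/KAT6B (−0.55), SETDB1/SETDB2 (−0.54), KDM1A/KDM1B (−0.52), BRD7/BRD9 (−0.47), TET2/TET3 (−0.35) and CHD3/CHD4 (−0.28).

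In the other 6 pairs the difference did not pass. EHMT1/EHMT2 (−0.27), SMARCA2/SMARCA4 (0.26) and SMARCC1/SMARCC2 (−0.30) each had an exact permutation p of 0.0571 (adjusted 0.0679). EZH1 minus EZH2 was 2.53, 2.72, 2.15 and 2.54 in PFA-fixed and 2.67, 2.55, 2.57 and 2.41 in fresh-frozen libraries, a shift of −0.07 (exact permutation p = 0.686). ARID1A minus ARID1B was 1.07, 1.10, 1.33 and 1.17 in PFA-fixed and 1.09, 1.25, 1.23 and 1.03 in fresh-frozen libraries, a shift of 0.02 (exact permutation p = 0.886). SMARCA1/SMARCA5 shifted by −0.05 (exact permutation p = 0.629). A p that misses the threshold does not show that these ratios were alike, but leaving out any 1 library kept the shift between −0.14 and 0.05 for EZH1/EZH2 and between −0.04 and 0.05 for ARID1A/ARID1B.

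**Figure D5:**
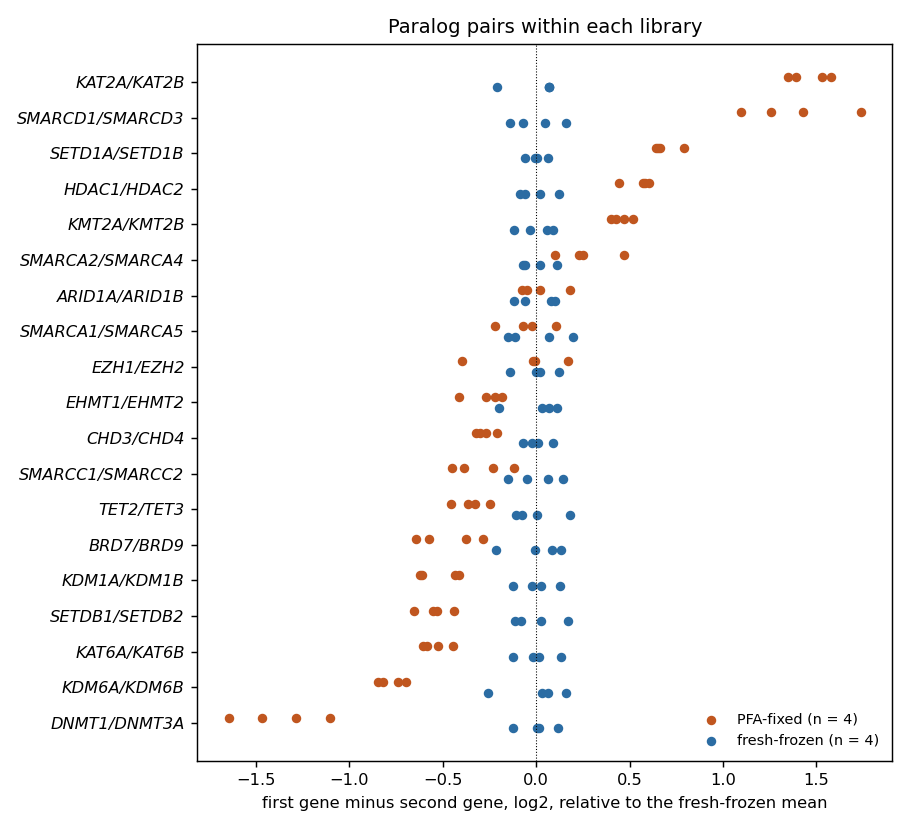
Level of the first gene minus that of the second (log2), relative to the mean of this difference in the fresh-frozen libraries (horizontal axis), for 19 pairs of paralogs (down the page), 1 point for each PFA-fixed and each fresh-frozen library. The groups do not overlap in 13 pairs, and the PFA-fixed means run from −1.37 for DNMT1/DNMT3A to 1.46 for KAT2A/KAT2B.

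Other genes of the same pathways, which the symbol families leave out, were taken from 5 lists. Of 129 listed genes, 119 were measured. Of these, 67 (56.3%) rose and 22 (18.5%) fell, against 33.9% and 34.7% of all genes. Their median change was 0.30. The 24 other writers measured had 12 rises (50%) and 7 falls (29.2%), with a median of 0.35, the falls near the share of all genes. PRMT9, an arginine methyltransferase of splicing factors, and ASH1L, which dimethylates H3 lysine 36, rose by 1.15 ± 0.08 and 1.02 ± 0.07. PRMT2 and PRMT6, which also methylate arginines, changed by −1.06 ± 0.08 and −1.01 ± 0.11, and PRMT6 had 3.38, 3.42, 3.18 and 3.19 log2 CPM in PFA-fixed, against 4.41, 4.20, 4.36 and 4.26 in fresh-frozen libraries. The 10 other erasers had 6 rises (60%) and 1 fall (10%). The rises were led by JMJD6, a lysyl hydroxylase (0.79 ± 0.13), and ALKBH1, a nucleic acid demethylase (0.61 ± 0.12). The fall was that of PHF2 (−0.27 ± 0.08). PHF2, an H3 lysine 9 demethylase, thus changed in the same direction as its partner ARID5B.

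Partner subunits of writers and erasers (35 of 37 measured) had 20 rises (57.1%) and 5 falls (14.3%), with a median of 0.30. PAXIP1, which joins KMT2C and KMT2D in COMPASS-like complexes, rose by 0.91 ± 0.11, and ING5, of the MOZ and HBO1 complexes, by 0.84 ± 0.10. RBBP4, a histone chaperone of polycomb complex 2, NuRD and SIN3, had 6.84, 6.68, 6.85 and 6.73 log2 CPM in PFA-fixed, against 7.40, 7.41, 7.30 and 7.40 in fresh-frozen libraries (−0.60 ± 0.06). UHRF1, which brings DNMT1 to replicated DNA, was lower at −0.61 ± 0.24 (limma adjusted p = 0.0432), with groups that overlapped. Its call was lost in 6 of the 8 analyses that left out 1 library (−0.62 to −0.48), all but those without PFA-fixed library 2 or fresh-frozen library 4, when centred on the library median (−0.53) and after quantile normalization (−0.25). Among 33 other remodeller genes measured of 37, 20 (60.6%) rose and 3 (9.09%) fell, with a median of 0.30. BAZ2B, a bromodomain partner of ISWI ATPases, had 10.16, 10.16, 10.16 and 10.06 log2 CPM in PFA-fixed, against 8.79, 9.03, 8.94 and 8.91 in fresh-frozen libraries (1.22 ± 0.07). ACTL6B (BAF53B), the actin-like subunit of the neuronal BAF complex, rose by 1.18 ± 0.13. BCL7C, a BAF accessory subunit, and MBD3, of NuRD, changed by −0.82 ± 0.18 and −0.51 ± 0.08.

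In polycomb complex 1, of 17 genes measured that are not themselves members, 9 (52.9%) rose and 6 (35.3%) fell, the falls at about the share of all genes (33.9% higher and 34.7% lower), and 5 rose at least 2-fold. PHC1, a polyhomeotic subunit, had 6.75, 6.82, 6.50 and 6.76 log2 CPM in PFA-fixed libraries, against 5.15, 5.29, 5.20 and 5.16 in fresh-frozen libraries. RING1, an E3 ligase that ubiquitinates H2A, had 6.11, 6.08, 5.76 and 5.94 log2 CPM in PFA-fixed and 4.54, 4.60, 4.52 and 4.48 in fresh-frozen libraries. The changes were 1.51 ± 0.08 and 1.43 ± 0.09 (limma adjusted p = 2.36e-08 and 7.4e-08), close in size to that of KMT2D. CBX2 and CBX6, chromodomain subunits that compete for a place in the complex, changed by −1.47 ± 0.37 and −0.71 ± 0.08, and CBX2 was low in both groups, at −1.49 to −0.24 log2 CPM in PFA-fixed and 0.34 to 1.30 in fresh-frozen libraries.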

How the data were processed

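The 8 libraries are bulk total RNA-seq of dog retina, 4 PFA-fixed and 4 fresh-frozen, grouped by the labels. The deposited table holds log2 CPM per gene symbol for 12824 genes, a normalized scale that the authors made before deposit. The tools named in the submitters' processing notes are limma, edgeR and kallisto, version 0.48.0 for the last. The build, strand setting and low-value filter were not given in the sources used here. Depth is given in the report as an effective value: 62.7 to 70.1% of low values (up to 20 reads) fell within 0.1 read of a whole multiple, where chance gives 20%, so reads could not be recovered and count models were left aside. CPM is not per transcript length, so a level of one gene or list beside another is not a comparison of transcript abundance.

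The whole table was fitted with limma 3.58.1 (R 4.3.3) with an intensity trend, on all 8 libraries with group as the only term. No pseudocount or filter was added. P-values were adjusted by Benjamini-Hochberg over all genes, with a threshold of 0.05, and every change is PFA-fixed minus fresh-frozen on the log2 scale. Paralog pairs were tested by exact permutation. The fit was checked on simulated data. Members, roles, pairs and lists were chosen with earlier results of these data known. Named genes are the 12 largest rises and 12 falls, the 8 highest levels, the 2 highest in each role and both genes of each pair. Up to 2 rises and 2 falls of each pathway list were also named. The remaining members, and UTY of the pathway lists, were named after their values were seen, so that families could be described. Alternatives were other scalings, a minimum level of 3 log2 CPM, 1 CPM added, no trend, a 1.5-fold test, a replicate block, and leaving out each library. The values of 1 member, which stays in the counts, are not reported here.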

Additional observations from a re-analysis of the deposited data

Results flagged for a closer look

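In 21 of 288 groups of 4 libraries, 1 library stood apart from the other 3 by a gap, relative to the range of the group, above Dixon's 95% critical value. Chance alone gives about 1 in 20 groups. All values are log2 CPM.

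Among PFA-fixed libraries, 1 library stood above the others for ARID4A in library 3 (7.02, the others at 6.84 to 6.85), DNMT3B in library 1 (3.98, the others at 3.80), EHMT2 in library 2 (7.40, the others at 7.12 to 7.15) and SETD2 in library 3 (8.89, the others at 8.74 to 8.76). Among PFA-fixed libraries, 1 library stood below the others for HDAC9 in library 3 (6.92, the others at 7.10 to 7.11), KDM3B in library 4 (8.89, the others at 8.98 to 8.99), KDM5C in library 3 (7.45, the others at 7.55 to 7.56), SMARCB1 in library 1 (6.58, the others at 6.78 to 6.82) and BAZ2B in library 4 (10.06, the others at 10.16). Among fresh-frozen libraries, 1 library stood above the others for ARID5B in library 1 (5.82, the others at 5.38 to 5.45), EHMT2 in library 3 (6.84, the others at 6.50 to 6.54), KDM5A in library 2 (7.24, the others at 6.97 to 7.01), KDM5B in library 2 (8.82, the others at 8.51 to 8.52) and ING5 in library 3 (4.89, the others at 4.64 to 4.68). Among fresh-frozen libraries, 1 library stood below the others for ARID1B in library 3 (7.85, the others at 7.92 to 7.93), CHD2 in library 1 (8.33, the others at 8.42 to 8.44), KAT5 in library 4 (6.33, the others at 6.48 to 6.49), ASH1L in library 1 (8.25, the others at 8.46 to 8.50) and RBBP4 in library 3 (7.30, the others at 7.40 to 7.41).

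For the paralog differences, SETD1A minus SETD1B stood highest in PFA-fixed library 2 (−0.21, the others at −0.36 to −0.34), and KAT2A minus KAT2B lowest in fresh-frozen library 4 (−3.65, the others at −3.37). Of the members above, HDAC9 is the one whose call was also lost on leaving out single libraries, while the calls of the other called members held in every such analysis.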

How the results depend on the processing

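The counts moved most with the scaling and with the 1.5-fold test. Centring and the stricter test move them by construction, and beyond that the cause was not tested. Centred on the rod mean, 41 members were higher and 19 lower (writers 17 and 4, remodellers 8 and 6, with 11 erasers and 5 readers higher). All genes were then 22.4% higher and 44.2% lower. Centred on the rod median, 19 were higher and 41 lower (writers 9 and 9, erasers 5 and 18, remodellers 4 and 9, readers 1 and 5). All genes were then 13.5% higher and 58% lower. The test for over 1.5-fold, stricter by construction, called 17 higher and 4 lower (writers 9 and 1, erasers 4 and 1, remodellers 3 and 0, and 1 reader higher). It called 11.9% of all genes higher and 14.1% lower. With a minimum level of 3 log2 CPM, 1 reader was lower, since ARID5A left the table. After quantile normalization, the median relative to all genes was 0.203 for members, 0.303 for writers, 0.127 for erasers, 0.105 for remodellers and 0.154 for readers. These medians relative to all genes were chosen after seeing the data. The SMARCA2/SMARCA4 shift then passed (0.26, exact permutation, adjusted p = 0.0388).

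Turns of sign are counted here only for members called in the main fit or under the alternative scaling. Small changes called in neither can turn as well and are not listed. After quantile normalization the sign turned for CHD4 (−0.19) and SMARCA4 (−0.18). Centred on the rod mean it turned for CHD4 (−0.20), HDAC9 (−0.061), KAT7 (−0.023) and SETD6 (−0.020). Centred on the rod median it turned for 43 members, among them ARID1A (−0.19), ARID1B (−0.21), ARID4A (−0.22), BRD2 (−0.19), BRD3 (−0.41), BRD7 (−0.44), BRD8 (−0.015), CHD4 (−0.46), CHD6 (−0.068), CHD8 (−0.26), DNMT1 (−0.43), EHMT1 (−0.16), EZH1 (−0.20), EZH2 (−0.13), HDAC1 (−0.41), HDAC6 (−0.24), HDAC9 (−0.32), KAT6A (−0.13), KAT7 (−0.29), KDM1A (−0.47), KDM2A (−0.13), KDM2B (−0.061), KDM3A (−0.15), KDM3B (−0.36), KDM4B (−0.45), KDM5A (−0.40), KDM5B (−0.15), KDM6A (−0.38), KDM7A (−0.26), KMT2E (−0.39), KMT5B (−0.18), NSD1 (−0.45), NSD3 (−0.046), SETD1B (−0.044), SETD3 (−0.41), SETD6 (−0.28), SETDB1 (−0.21), SIRT5 (−0.15), SMARCA2 (−0.19), SMARCA4 (−0.45), SMARCC1 (−0.091) and SMARCE1 (−0.45).

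Leaving out 1 library gave 62 to 65 members higher and 10 to 12 lower, and moved none of the counts by role, or of the members, by more than 1.5 times. By role these were 24 to 26 and 2 to 3 for writers, 16 to 19 and 4 to 5 for erasers, 13 to 14 and 2 to 3 for remodellers, and 8 to 9 and 2 for readers. With 3 against 4 libraries the pair test cannot go below p = 0.0571 (exact permutation), so its calls were not judged there. Deviations of libraries with the same replicate number correlated by 0.05, 0.15, −0.09 and 0.22, and those with different numbers by −0.27 to 0.22. These ranges overlap, so the values show neither that the numbers pair the libraries nor that they do not. The fit with a replicate block called 65 members higher and 12 lower, 64 and 12 of them shared with the fit without it. SETD6 and HDAC9 lost their calls there (limma adjusted p = 0.0649 and 0.0573), and TET1 gained one (limma adjusted p = 0.0229). PFA-fixed libraries were shallower, but the lowest members, ARID5A and SETD9, were still well above the floor of −3.12 log2 CPM.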
